A study of Mus musculus with 6 samples.

Results

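Collagens are secreted matrix proteins, each built from chains that wind around one another, and every chain has a gene of its own. The collagen chains described here are the genes whose TargetID, the name that the array gives to a probe's target, is COL, a number, the letter A and a number, whatever the case of the letters. There are 40 such genes with 88 probes, of 30854 TargetIDs with 45281 probes on the array. The fibrillar types hold 11 of the genes (27 probes), the basement-membrane types 8 (15 probes) and the other types 21 (46 probes).

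The arrays compared differentiated C2C12 cells that had received an siRNA against DJ-1, the protein of the gene Park7, with cells that had received a scrambled siRNA, to see which transcripts change when DJ-1 is reduced. C2C12 is a clonal line of mouse myoblasts that fuse into myotubes. Both groups were reverse transfected with 60 nM siRNA in Lipofectamine RNAiMAX, moved from growth medium to medium with horse serum 48 hours later, and harvested after 96 hours (4 days) of differentiation. The groups, called Scramble and siDJ-1 here, hold 3 arrays each, all 6 on one BeadChip. The labels name 1 siRNA per group, so other effects of the siRNA against DJ-1 cannot be told apart from those of less DJ-1. They number the arrays of a group as replicates without saying that the cultures were grown separately. The p-values given here therefore measure the spread between these samples, which may be technical.

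Fibrillar collagens assemble into the cables that give connective tissue its strength, while the network-forming type IV collagens make the sheet of basement membrane that wraps every muscle fiber. Type VI collagen forms fine beaded filaments between the basement membrane and the fibrils, and loss of its chains in people causes muscle weakness and joint contractures. Muscle cells in culture make part of this matrix themselves, and chains are hydroxylated, folded, exported, trimmed and crosslinked on the way to a finished fibril.

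Each array held one sample, and a probe counted as detected on an array where its detection p-value, which compares its signal with that of negative control beads, was under 0.05. Of the 88 collagen probes, the Scramble arrays detected 36, 35 and 37 and the siDJ-1 arrays 37, 40 and 35, in the order of replicates 1, 2 and 3, which all lists of values below follow. Across the whole array 16985, 17399 and 18179 probes were detected for Scramble and 18704, 18857 and 18408 for siDJ-1, more on each siDJ-1 array than on any Scramble array. The median standard error over beads of the tested collagen probes, in units of raw intensity, lay between 33.7 and 49.5 for the Scramble arrays and between 18.2 and 23.1 for the siDJ-1 arrays. The part of this difference in the collagen results was not tested. A fit with array weights was run, but these weights come from how far each array's normalized values lie from its group's mean. They do not use the bead standard errors. With 3 arrays a group, their number limits the precision of every value.

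Park7 itself, measured by 1 probe (ILMN_2728754), had a normalized log2 signal of 13.59, 13.37 and 13.63 for Scramble and 12.48, 12.49 and 12.15 for siDJ-1. Every siDJ-1 array lay below every Scramble array, and the knockdown was 2.24-fold (log2 fold change -1.16, SE 0.14, 95% confidence interval -1.49 to -0.84, adjusted p = 0.00344). Here and below a log2 fold change is siDJ-1 minus Scramble, and a probe is called higher or lower where limma's moderated test, adjusted over all 17890 tested probes by the Benjamini-Hochberg method, gives an adjusted p under 0.05. The tested probes are those detected on at least 3 of the 6 arrays.

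Among the collagen probes, 36 of 88 could be tested, and they cover 23 of the 40 genes. Of these 36 probes, 15 were called, or 41.7%, beside 30.1% of all tested probes. The calls were 12 lower (33.3%, beside 13.6% of all tested probes) from 8 genes and 3 higher (8.33%, beside 16.5%) from 2 genes. A rise of Col4a5 was on a probe that entered the test through the siDJ-1 arrays alone, as did 380 probes of the array, of which 266 were called higher. Without probes that 1 group alone detected 2 of 35 rose, both of Col18a1 (5.71%, beside 15.4% over the array), and 12 fell. The median log2 fold change of the tested collagen probes was -0.15, that of all tested probes 0.05, and 25 of the 36 lay below 0. Groups did not overlap for 21 collagen probes (58.3%, beside 48.5% of all tested probes), with siDJ-1 below Scramble for 16 of them and above for 5. The 3 rises were 1 with no filter or with gene means, 4 without Scramble replicate 1, 1 without Scramble replicate 2, Scramble replicate 3 or siDJ-1 replicate 1, and 0 without siDJ-1 replicate 2 or 3, while the falls numbered 8 to 12 with 1 array left out and 8 to 14 over all alternatives. Over the whole array the 2957 rises were 1998 without siDJ-1 replicate 2, 1330 without siDJ-1 replicate 3 and 1908 with no filter. The 2430 falls of the array were 1187 without siDJ-1 replicate 1. The collagen median was -0.28 without siDJ-1 replicate 3, -0.04 after a shift of the arrays to a common 75th percentile with no background correction, -0.04 again with no filter, and -0.35 with a strict filter on detection. In RNA from whole cultures, fewer cells of a type and less RNA per cell cannot be told apart.

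Split by type, the fibrillar chains had 4 lower (40%, beside 13.6% of all tested probes) and 0 higher calls (beside 16.5%) among 10 tested probes, with a median log2 fold change of -0.35. The basement-membrane chains had 3 higher (50%) and 0 lower calls among 6 tested probes, with a median of 0.39, which is 0.31 with the Col4a5 probe that Scramble did not detect set at its bound and 0.33 without it. These are the 3 rises counted above, whose number ran from 0 to 4 with 1 array left out. Without that Col4a5 probe 2 of 5 rose (40%, beside 15.4% over the array). With type IV chains alone the rise left is that of the same Col4a5 probe. The other types had 8 lower (40%) and 0 higher calls among 20 tested probes, with a median of -0.41. The 4 fibrillar falls were 2 after background correction and a shift to a common 75th percentile, and also without Scramble replicate 3, siDJ-1 replicate 1 or siDJ-1 replicate 3. Among the other types 1 rise, of Col16a1, was called with 3 of the alternatives. Whether the types differ from one another was not tested.

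**Figure D1:**
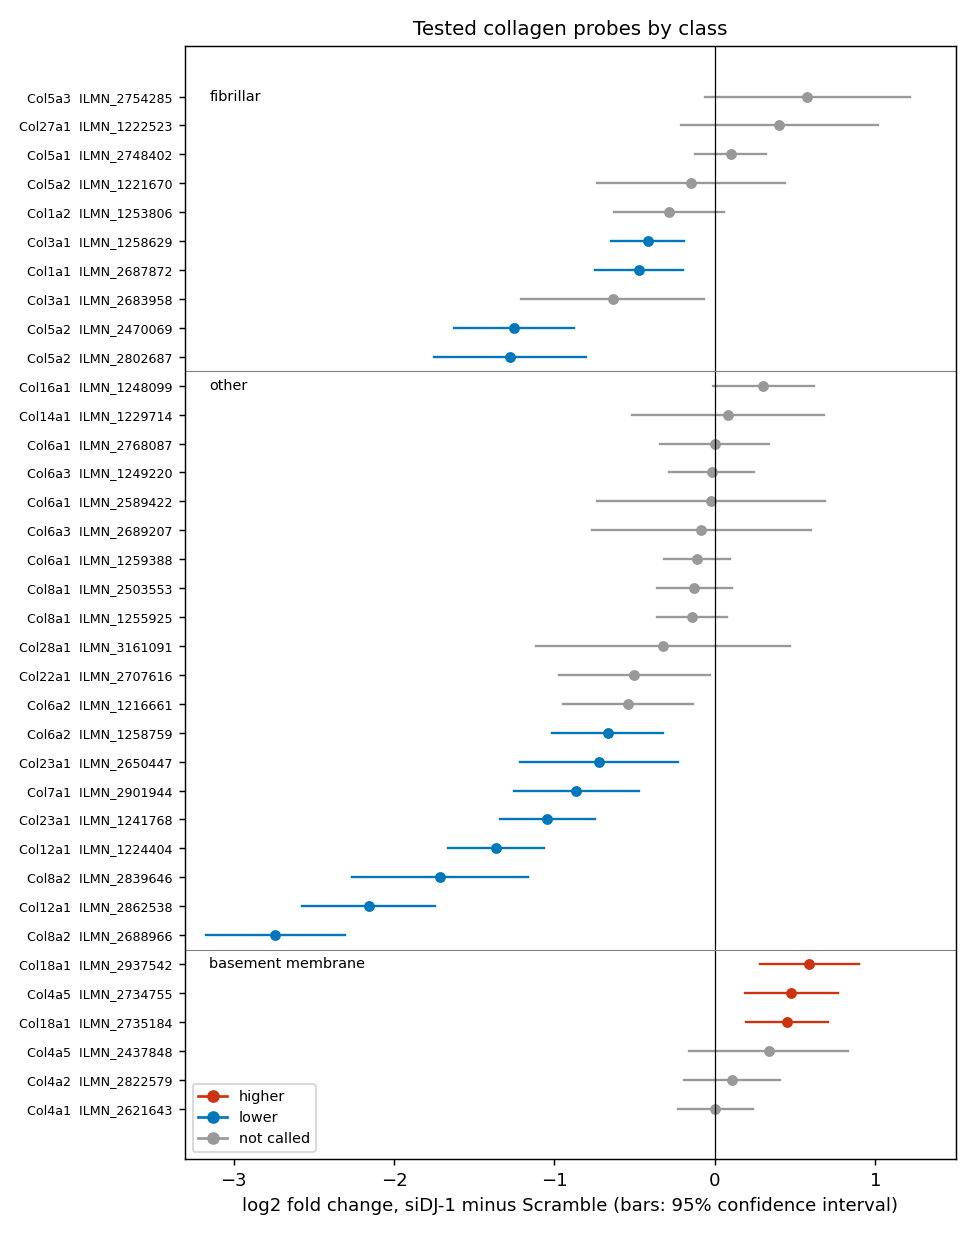
Log2 fold change (siDJ-1 minus Scramble, horizontal axis) of the 36 tested collagen probes, grouped by collagen type, with points for the estimates, bars for the 95% confidence intervals of limma, and called falls in blue, called rises in red and other probes in grey. The 12 called falls, from -0.42 to -2.74, lie in the fibrillar and other types and the 3 called rises, from 0.45 to 0.59, in the basement-membrane types, where the Col4a5 rise is on a probe that Scramble did not detect, and under a 75th percentile shift with background correction 2 of the fibrillar falls lose their call.

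Markers of the cells in the culture moved as well. Of 28 probes for 10 myotube markers 23 were tested, with 11 lower (47.8%, beside 13.6% of all tested probes) and 2 higher (8.70%, beside 16.5%), and both rises were of Ttn, the giant spring protein of the sarcomere, which has falling probes too. Neither rising Ttn probe had a RefSeq match, so their gene rests on the array's name. The summed background-corrected signal of the tested myotube probes was 168366, 161705 and 160222 for Scramble and 128144, 137812 and 114514 for siDJ-1, with Acta1, skeletal muscle actin, as the most abundant gene. For the markers of undifferentiated myoblasts or reserve cells 3 of 7 probes were tested, 2 lower (both Megf10) and 1 higher (Cd34). Their sum was 13196, 12445 and 13417 for Scramble and 7545, 7886 and 6955 for siDJ-1, Megf10 was the most abundant, and Pax7, Myf5 and Pax3 had no tested probe. Both sums were lower on every siDJ-1 array than on any Scramble array, and their part in the collagen results was not tested.

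The markers of other matrix-making cells were sparse. With at most 4 tested probes in each list, reserve cells included, shares can hardly be set beside the 13.6% lower and 16.5% higher of all tested probes. Fibroblast markers had 4 of 11 probes tested and 1 lower, Pdgfra, which was also the most abundant, and no tested probe for Thy1, Tcf21 or Lum. Their sum was 851, 927 and 874 for Scramble and 615, 896 and 467 for siDJ-1, so the groups overlapped. Chondrocyte markers had 2 of 7 probes tested, both of Sox9, of which 1 was lower, with sums of 3430, 3319 and 3640 for Scramble and 2582, 2728 and 2569 for siDJ-1, lower on each siDJ-1 array, and Acan, Matn1 and Comp had no tested probe. Osteoblast markers had 3 of 10 probes tested and 0 called, with sums of 155, 183 and 235 against 119, 162 and 137, Bglap the most abundant, and Sp7 and Runx2 had no tested probe. Of 4 adipocyte and 6 endothelial probes 0 were tested, and of 7 macrophage probes 1 was, for Cd68, with signals of 12.7, 37.0 and 11.5 for Scramble and 36.7, 29.2 and 35.8 for siDJ-1 and no tested probe for Ptprc or Adgre1. The part of these markers in the collagen results was not tested.

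Type I collagen, the main fibril of tendon, bone and scar, joins chains from Col1a1 and Col1a2. Col1a1 (ILMN_2687872) read 11.44, 11.25 and 11.57 for Scramble and 10.88, 11.01 and 10.95 for siDJ-1. Each siDJ-1 array was below each Scramble array, and the fall was 1.39-fold (log2 fold change -0.47, SE 0.11, adjusted p = 0.0238). That call was lost without Scramble replicate 3, siDJ-1 replicate 1 or siDJ-1 replicate 3 (adjusted p = 0.0588, 0.0886 and 0.0720), with no filter, with the replicate numbers as a block and after background correction with a 75th percentile shift, and over all alternatives the adjusted p ran from 0.00104 to 0.0886. Col1a2 (ILMN_1253806) gave 9.91, 9.49 and 9.62 for Scramble and 9.53, 9.24 and 9.38 for siDJ-1. Its groups overlapped, and with a log2 fold change of -0.29 (95% confidence interval -0.63 to 0.05) and an adjusted p of 0.174 it did not pass the test. Without Scramble replicate 1 the estimate was -0.17, again not called.

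Type III collagen, which makes thin fibrils in elastic tissues and in the sheaths of muscle, is a molecule of Col3a1 chains alone. Its probe ILMN_1258629 had a signal of 13.73, 13.67 and 13.78 for Scramble and 13.26, 13.39 and 13.27 for siDJ-1. The siDJ-1 arrays all lay lower, by 1.34-fold (log2 fold change -0.42, SE 0.09, adjusted p = 0.0190). As with Col1a1, the call was lost without Scramble replicate 3, siDJ-1 replicate 1 or siDJ-1 replicate 3 (adjusted p = 0.0524, 0.0758 and 0.0614), with the replicate block and after background correction with a 75th percentile shift, where the log2 fold change was -0.28, in a range of 0.000162 to 0.0930. A second probe, ILMN_2683958, read 7.96, 8.01 and 8.65 for Scramble and 7.21, 7.67 and 7.83 for siDJ-1. These groups did not overlap either, but the arrays of each spread more widely, and a log2 fold change of -0.64, which was -0.41 without Scramble replicate 3 and -0.41 with quantile scaling and no background correction, came with an adjusted p of 0.0876, short of the threshold, which it passed in 5 alternatives (range 0.0225 to 0.231).

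Type V collagen sits inside type I fibrils and sets their diameter, with chains from Col5a1, Col5a2 and Col5a3. Col5a2 had the steepest fall of the fibrillar chains. Its probe ILMN_2470069 read 10.40, 10.22 and 10.53 for Scramble and 9.02, 9.42 and 8.95 for siDJ-1. Its probe ILMN_2802687 read 10.06, 10.39 and 10.12 for Scramble and 9.33, 8.74 and 8.66 for siDJ-1. On both, the highest siDJ-1 array was below the lowest Scramble array, with falls of 2.38-fold (log2 fold change -1.25, SE 0.16, adjusted p = 0.00374) and 2.43-fold (-1.28, SE 0.20, adjusted p = 0.00640), and both were called in every alternative run. The last tested Col5a2 probe, ILMN_1221670, was near background at 5.35, 6.19 and 5.87 for Scramble and 5.40, 5.59 and 5.97 for siDJ-1, with overlapping groups, and did not pass the test (log2 fold change -0.15, adjusted p = 0.679).

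The partner chain Col5a1 (ILMN_2748402) had a signal of 13.80, 13.75 and 13.79 for Scramble and 13.85, 13.83 and 13.96 for siDJ-1. All siDJ-1 arrays were above all Scramble arrays without passing the test (log2 fold change 0.10, adjusted p = 0.457, and 0.05 to 0.27 over the alternatives). Col5a3 (ILMN_2754285), a chain of a rarer form of type V, was dimmer at 6.02, 6.98 and 6.57 for Scramble and 6.81, 7.07 and 7.42 for siDJ-1. Its groups overlapped, Scramble replicate 2 reading above siDJ-1 replicate 1, and the test was not passed (log2 fold change 0.58, adjusted p = 0.148). The estimate was 0.33 without Scramble replicate 1, 0.38 with array weights, and 0.26 and 0.25 with no background correction under quantile scaling and the 75th percentile shift, not called in any. The last tested fibrillar chain was Col27a1 (ILMN_1222523), found in developing cartilage, which was detected on 1 Scramble and 2 siDJ-1 arrays and not called (log2 fold change 0.40, adjusted p = 0.276, and 0.13 to 0.56 over the alternatives).

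**Figure D2:**
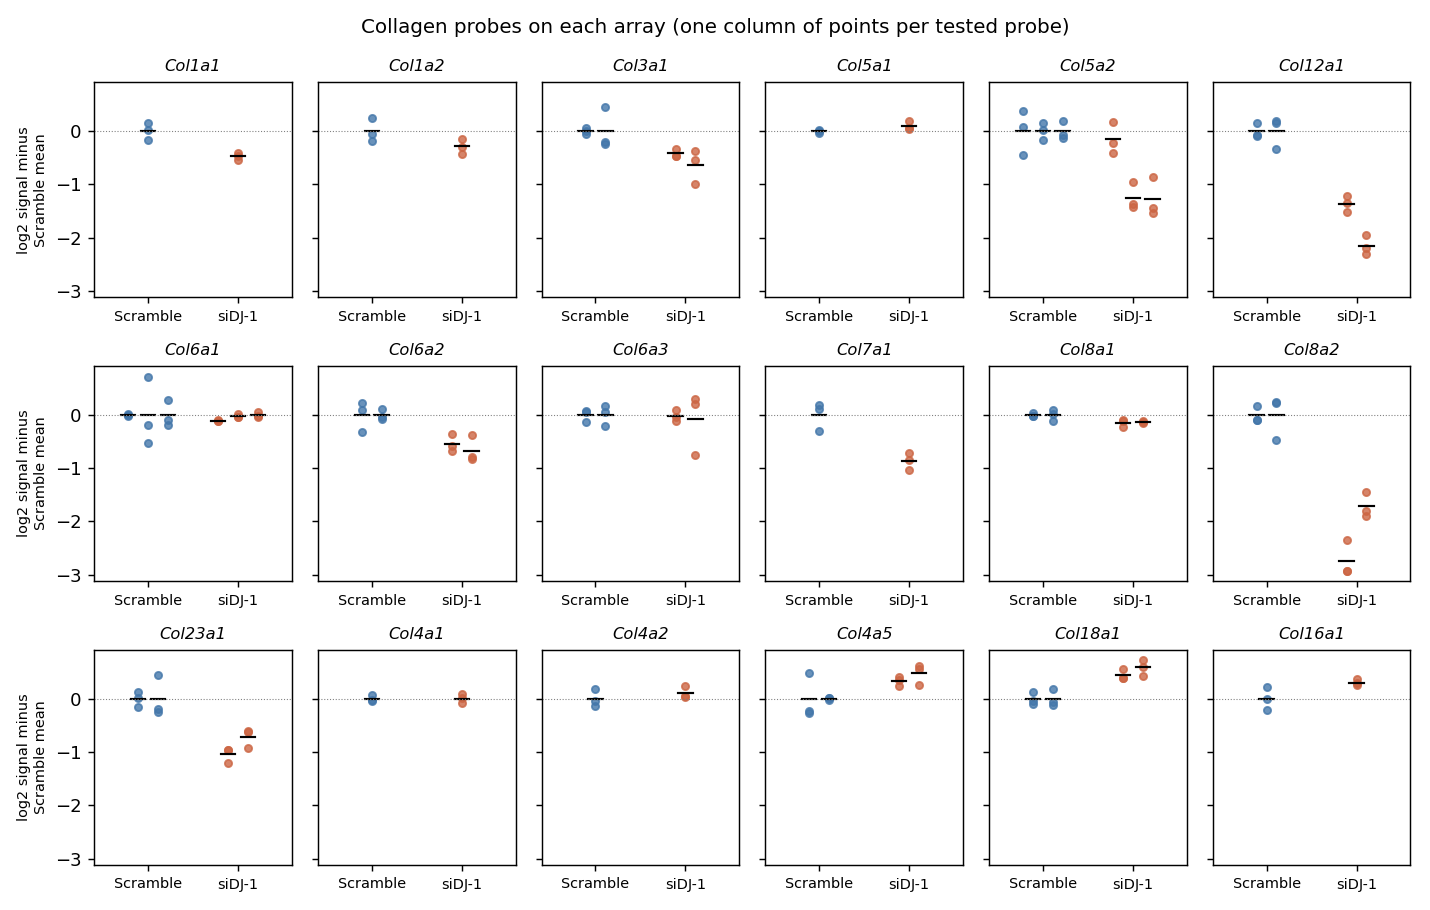
Normalized log2 signal minus the Scramble mean of the same probe (vertical axis) for the tested probes of 18 collagen genes, with 1 point for each of the 3 Scramble (blue) and 3 siDJ-1 (orange) arrays, 1 column of points per probe and a black bar at each group's mean. The siDJ-1 means of Col8a2 (-2.74 and -1.71) and Col12a1 (-2.16 and -1.37) lie far below the Scramble points, that of Col4a1 (0.00) lies among them, and those of Col18a1 (0.45 and 0.59) lie above.

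Fibril-associated collagens do not form fibrils but coat them. Col12a1, a fibril-associated chain of tendon, muscle sheath and periosteum whose loss gives a muscle and joint disorder, was measured by 2 tested probes. The probe ILMN_2862538 read 10.43, 10.90 and 10.95 for Scramble and 8.45, 8.81 and 8.56 for siDJ-1. The probe ILMN_1224404 read 7.30, 7.27 and 7.52 for Scramble and 5.84, 6.02 and 6.14 for siDJ-1. Every siDJ-1 array was below every Scramble array on both, and the falls were 4.46-fold (log2 fold change -2.16, SE 0.17, adjusted p = 0.00248) and 2.58-fold (-1.37, SE 0.13, adjusted p = 0.00277). Each was called in every alternative run, although with no background correction the second probe stood at -0.60 under either scaling.

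The other fibril-associated chains with a tested probe were not called. Col16a1 (ILMN_1248099), which binds both fibrils and integrins, was higher on all siDJ-1 arrays than on any Scramble array without passing the test (log2 fold change 0.30, adjusted p = 0.126, and 0.20 without Scramble replicate 2). It did pass with no background correction under either scaling and with a trend of the prior variance, and its adjusted p over the alternatives ran from 0.0241 to 0.282. Col22a1 (ILMN_2707616), a chain of the junction between muscle and tendon, was detected on 3 Scramble arrays and 1 siDJ-1 array (log2 fold change -0.50, adjusted p = 0.0989, and -0.73 to -0.14 over the alternatives), with Scramble replicate 3 within the siDJ-1 range, and without that array it was called (adjusted p = 0.0141, in a range of 0.0141 to 0.256). Col14a1 (ILMN_1229714), which coats fibrils in skin and tendon, had overlapping groups (log2 fold change 0.08, adjusted p = 0.831, and -0.18 to 0.32 over the alternatives).

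Type VI collagen joins chains from Col6a1, Col6a2 and Col6a3, and its filaments anchor the muscle basement membrane. For Col6a1 the probe ILMN_1259388 read 12.78, 12.74 and 12.73 for Scramble and 12.64, 12.63 and 12.65 for siDJ-1. ILMN_2768087 read 12.90, 12.81 and 13.28 for Scramble and 12.96, 13.06 and 12.97 for siDJ-1. The first put every siDJ-1 array just under the Scramble arrays and the second mixed the groups, with log2 fold changes of -0.11 (95% confidence interval -0.32 to 0.10, adjusted p = 0.375) and -0.00 (95% confidence interval -0.34 to 0.34, adjusted p = 0.996). After background correction and a 75th percentile shift both turned to positive values, 0.04 and 0.15, again not called. The remaining dim probe, ILMN_2589422, gave 5.34, 5.66 and 6.58 for Scramble and 5.82, 5.88 and 5.81 for siDJ-1, with the widest spread in Scramble (log2 fold change -0.02, adjusted p = 0.960), and its estimate was 0.34, not called, without Scramble replicate 3.

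Col6a2 was called lower on 1 of its 2 tested probes. The called probe has the Col6a2 name from the array without a RefSeq match, and the uncalled one has a match. The called probe, ILMN_1258759, read 7.79, 7.84 and 7.98 for Scramble and 7.07, 7.48 and 7.05 for siDJ-1. The siDJ-1 arrays all lay below the Scramble arrays, by 1.59-fold (log2 fold change -0.67, SE 0.15, adjusted p = 0.0172), and the call was lost without siDJ-1 replicate 1 or siDJ-1 replicate 3 (adjusted p = 0.0658 and 0.0613, in a range of 0.00593 to 0.0658 over the alternatives). With no background correction its log2 fold change was -0.39 under either scaling. The probe ILMN_1216661 read 8.99, 8.45 and 8.87 for Scramble and 8.19, 8.40 and 8.09 for siDJ-1. Its groups did not overlap, and its log2 fold change of -0.54 just missed the threshold (adjusted p = 0.0516), which it passed in 6 alternatives, among them the one without Scramble replicate 2 (adjusted p = 0.0228), in a range of 0.0129 to 0.153. Col6a3, the chain whose tail fragment is released as endotrophin, had a bright probe, ILMN_1249220, at 13.39, 13.18 and 13.38 for Scramble and 13.28, 13.41 and 13.20 for siDJ-1. Its groups overlapped throughout (log2 fold change -0.02, 95% confidence interval -0.28 to 0.24, adjusted p = 0.906, and 0.12 after background correction with a 75th percentile shift, not called). The dim Col6a3 probe ILMN_2689207 gave 5.90, 5.79 and 5.52 for Scramble and 4.98, 5.95 and 6.03 for siDJ-1, also overlapping (log2 fold change -0.09, adjusted p = 0.847).

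With the main processing the steepest collagen fall was that of Col8a2, a short chain that builds hexagonal networks, best known from the membrane under the corneal endothelium. Its probe ILMN_2688966 read 9.45, 9.45 and 9.71 for Scramble and 6.60, 7.18 and 6.61 for siDJ-1. Its probe ILMN_2839646 read 7.19, 7.17 and 6.46 for Scramble and 5.14, 5.04 and 5.50 for siDJ-1. Neither of these tested probes had overlapping groups, and the signal was 6.67-fold lower on the first (log2 fold change -2.74, SE 0.18, 95% confidence interval -3.17 to -2.30, adjusted p = 0.00224) and lower on the second too (log2 fold change -1.71, SE 0.23, adjusted p = 0.00429), which only 1 siDJ-1 array detected, so that the size of this fall is taken against signals mostly at background. Both were called in every alternative run in which they were tested, but the size of the fall moved. With no background correction the first stood at -1.84 with quantile scaling and -1.83 with a 75th percentile shift, and the second at -0.63 and -0.62. The Col12a1 probe ILMN_2862538 was at -1.83 or lower in every alternative, so Col8a2 had little or no lead over it there. Col8a1, the other chain of type VIII, measured by 2 bright probes, gave log2 fold changes of -0.14 and -0.13, neither called (adjusted p = 0.272 and 0.367). They turned to 0.01 and 0.02 after background correction with a 75th percentile shift.

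Col7a1, the chain of the anchoring fibrils that fasten epithelium to the tissue beneath, was read by ILMN_2901944 at 7.16, 7.65 and 7.58 for Scramble and 6.61, 6.43 and 6.75 for siDJ-1. All siDJ-1 arrays were below all Scramble arrays, the fall was 1.82-fold (log2 fold change -0.86, SE 0.16, adjusted p = 0.0112), and the call was made in every alternative run, with a log2 fold change of -0.43 when the background was not corrected, under either scaling. Col23a1, a transmembrane chain whose outer part can be shed, had the probe ILMN_1241768 at 7.15, 7.44 and 7.33 for Scramble and 6.36, 6.34 and 6.10 for siDJ-1. Its groups were apart by 2.06-fold (log2 fold change -1.04, SE 0.12, adjusted p = 0.00356), again in every alternative run, at -0.47 and -0.46 with no background correction under quantile scaling and the 75th percentile shift. The other Col23a1 probe, ILMN_2650447, also fell (log2 fold change -0.72, adjusted p = 0.0399), but its call was lost with no filter and when any array but Scramble replicate 1 was left out (adjusted p = 0.0539 without Scramble replicate 2, 0.0533 without Scramble replicate 3, and 0.0891, 0.0716 and 0.127 without siDJ-1 replicates 1, 2 and 3, in a range of 0.00627 to 0.127). Col28a1 (ILMN_3161091), a chain of peripheral nerve, was detected on 2 Scramble arrays and 1 siDJ-1 array and not called (log2 fold change -0.32, adjusted p = 0.497, and -0.65 to -0.07 over the alternatives).

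Chains of the same collagen type were then compared within each array, with the Scramble mean set to 0. The value is the mean log2 signal of 1 chain minus that of the other. For Col5a2 minus Col5a1 the differences were -0.21, 0.17 and 0.04 for Scramble and -0.94, -0.92 and -1.11 for siDJ-1. For Col6a2 minus Col6a1 they were 0.27, -0.05 and -0.22 for Scramble and -0.63, -0.36 and -0.69 for siDJ-1. Neither pair overlapped between groups, and the difference between the group means was -0.99 for the first and -0.56 for the second, on the log2 scale. The two-sided exact permutation test gave p = 0.1 for each, the smallest it can give with 3 arrays against 3, or 0.2 adjusted by the Benjamini-Hochberg method over the 4 pairs, so this test cannot pass 0.05 here, and no other test of the differences was run. The first difference was -0.63 with no filter, and the second -0.35 with no background correction and quantile scaling. For Col1a2 minus Col1a1 the change was 0.19 (exact p = 0.5, adjusted 0.5) and for Col4a2 minus Col4a1 it was 0.10 (exact p = 0.4, adjusted 0.5), with overlapping groups in both. The change for type I turned to -0.14 with no filter, and with 1 array left out it ran from 0.08 to 0.30, and that for type IV from 0.04 to 0.21. Col8a2 minus Col8a1, a pair added after its values were seen, read 0.02, 0.14 and -0.15 for Scramble and -2.25, -1.95 and -2.08 for siDJ-1 (a difference between means of -2.09), and the siDJ-1 arrays lay apart from the Scramble arrays. That difference was -1.10 with no background correction and quantile scaling, -1.19 with none and a 75th percentile shift, and -1.32 with no filter. With the strict filter, which leaves out the Col8a2 probe that 1 siDJ-1 array detected, it was -2.60. Such a difference describes 1 chain relative to the other, which no test here could establish, and does not tell which of them held still.

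**Figure D3:**
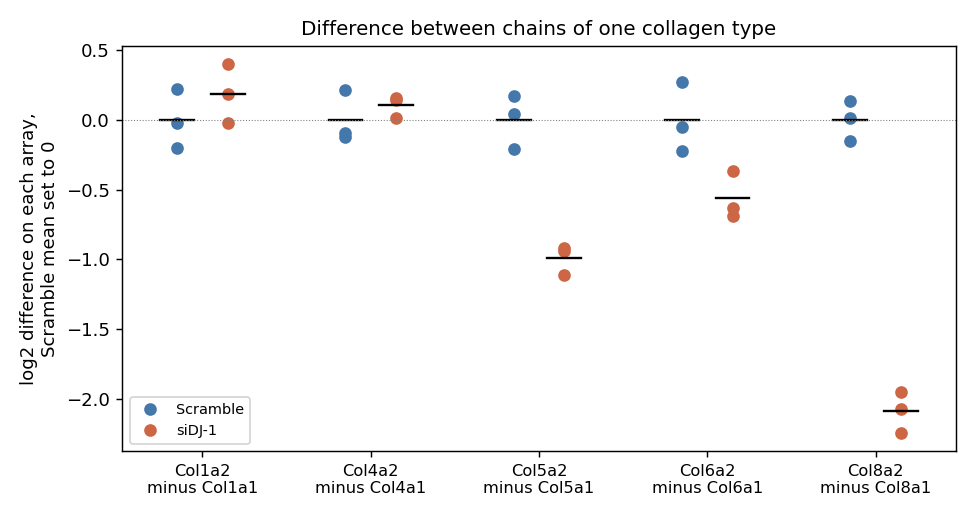
Within-array difference in mean log2 signal between 2 chains of the same collagen type (vertical axis, Scramble mean set to 0) for 5 pairs, with 1 point for each of the 3 Scramble and 3 siDJ-1 arrays. The siDJ-1 points lie apart from the Scramble points for Col5a2 minus Col5a1 (-0.92 to -1.11), Col6a2 minus Col6a1 (-0.36 to -0.69) and Col8a2 minus Col8a1 (-1.95 to -2.25) and overlap them for types I and IV.

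The sequence before the start of these genes was looked at for the pairs of types VI and VIII, whose second chain dropped against the first on every siDJ-1 array. RefSeq windows of 250 bases before a transcript start were found for 32 of the 40 genes, 35 windows in all, with none for Col1a1, Col5a2 or Col12a1. All positions are on GRCm38.p6: Col6a1 at chr10:76726045-76726294 and Col6a2 at chr10:76623631-76623880, both on the minus strand, Col8a1 at chr16:57754738-57754987 on the minus strand and Col8a2 at chr4:126286544-126286793 on the plus strand. They read, from 5′ to 3′, with the matches found in capitals:
Col6a1: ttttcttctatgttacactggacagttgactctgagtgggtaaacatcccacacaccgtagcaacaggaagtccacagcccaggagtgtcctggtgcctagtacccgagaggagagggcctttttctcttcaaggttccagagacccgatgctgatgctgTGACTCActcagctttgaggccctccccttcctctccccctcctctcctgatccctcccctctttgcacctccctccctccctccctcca
Col6a2: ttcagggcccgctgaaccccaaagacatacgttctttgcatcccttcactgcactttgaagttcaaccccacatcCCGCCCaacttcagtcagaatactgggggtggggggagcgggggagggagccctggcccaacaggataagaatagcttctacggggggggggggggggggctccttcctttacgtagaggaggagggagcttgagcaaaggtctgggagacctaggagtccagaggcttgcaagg
Col8a1: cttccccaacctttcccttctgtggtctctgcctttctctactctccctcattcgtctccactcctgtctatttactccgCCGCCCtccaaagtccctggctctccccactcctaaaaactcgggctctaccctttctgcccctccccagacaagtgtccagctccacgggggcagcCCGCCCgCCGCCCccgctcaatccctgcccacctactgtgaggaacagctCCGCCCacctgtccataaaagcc
Col8a2: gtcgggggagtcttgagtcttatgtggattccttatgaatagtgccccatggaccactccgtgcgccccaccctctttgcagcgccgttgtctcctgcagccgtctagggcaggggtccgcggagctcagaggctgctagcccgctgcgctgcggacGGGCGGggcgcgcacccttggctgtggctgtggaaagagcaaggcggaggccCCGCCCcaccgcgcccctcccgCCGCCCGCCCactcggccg
The letters searched, on both strands, were the TATA box as TATAAA, the CCAAT box by its own letters, the GC box as GGGCGG, the AP-1 site as TGANTCA, with N for any base, and the hypoxia response core as ACGTG. The capitals in Col8a1 and Col8a2 are 4 GC boxes each, of which a pair in Col8a2 overlaps, the match in Col6a2 is 1 GC box, and that in Col6a1 is 1 AP-1 site. Of all 32851 windows of that length 32.7% hold a GC box, beside 19 of the 35 collagen windows (54.3%), while the median share of G and C was 52.4% in all windows and 59.2% in the collagen windows. The TATA box was in 12.4% of all windows and 5 collagen windows, the CCAAT box in 33.8% and 12, the AP-1 site in 6.75% and 1, and the hypoxia response core in 16.6% and 4. These matches are a description of the letters and locate no bound factor.

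Position in the genome groups some of the chains too. Col3a1 and Col5a2, both with called falls, are neighbors on chromosome 1 with 0 genes between them in the RefSeq table. Col9a1 and Col19a1, and Col4a4 and Col4a3, on the same chromosome, also have 0 genes between them, and none of these genes had a tested probe. Col6a2 and Col6a1 lie on chromosome 10 with 2 genes between, and Col4a1 and Col4a2 on chromosome 8 with 1. Col4a6, which had no tested probe, and Col4a5 lie on the X chromosome with 2 genes between. Whether position goes with the changes was not tested.

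The basement-membrane types held the 3 called rises. Col18a1, whose chain carries heparan sulfate and releases endostatin from its end, was measured by 2 tested probes. ILMN_2735184 read 12.56, 12.39 and 12.34 for Scramble and 12.82, 12.98 and 12.83 for siDJ-1. ILMN_2937542 read 7.85, 8.09 and 7.78 for Scramble and 8.34, 8.64 and 8.51 for siDJ-1. Every siDJ-1 array was above every Scramble array on both, by 1.36-fold (log2 fold change 0.45, SE 0.11, adjusted p = 0.0236) and 1.51-fold (0.59, SE 0.13, adjusted p = 0.0181). Leaving out Scramble replicate 2 or 3 or siDJ-1 replicate 1, 2 or 3 ended the call on the first (adjusted p = 0.0607, 0.0614, 0.0667, 0.0670 and 0.0610, in a range of 0.000447 to 0.0670), as did testing with no filter or with the replicate block. On the second it ended without siDJ-1 replicate 2 or 3 (adjusted p = 0.0522 and 0.0612, in a range of 0.00517 to 0.0612), and its log2 fold change was 0.38 with a 75th percentile shift and no background correction.

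Of the type IV chains, Col4a1 and Col4a2 build the common network around muscle fibers. Col4a1 (ILMN_2621643) read 11.82, 11.71 and 11.73 for Scramble and 11.66, 11.76 and 11.84 for siDJ-1. Col4a2 (ILMN_2822579) read 10.89, 10.80 and 11.13 for Scramble and 10.99, 10.96 and 11.17 for siDJ-1. Both pairs of groups overlapped, with log2 fold changes of 0.00 (95% confidence interval -0.23 to 0.23, adjusted p = 0.992) and 0.11 (-0.19 to 0.40, adjusted p = 0.558). Over the alternatives they ran from -0.04 to 0.13 and from 0.04 to 0.23, never called. Col4a5, a chain of the kidney filter that is also found in muscle basement membrane, had the probe ILMN_2437848 at 8.69, 7.94 and 7.98 for Scramble and 8.45, 8.61 and 8.56 for siDJ-1, where Scramble replicate 1 was the highest of the 6 and the test was not passed (log2 fold change 0.33, adjusted p = 0.265, and 0.21 to 0.58 over the alternatives), although without that array it was (adjusted p = 0.0144, in a range of 0.0144 to 0.527). A dim second probe, ILMN_2734755, gave 5.33, 5.30 and 5.34 for Scramble and 5.88, 5.58 and 5.94 for siDJ-1 and entered the test through the siDJ-1 arrays alone, since no Scramble array detected it, and it is left out of the count of 2 rises above. For a probe that a group did not detect, that group's signal is taken on each array as the higher of its own and the dimmest detected signal, which makes the fold a lower bound for background-corrected signals, here at least 1.22-fold higher (adjusted p = 0.0285). The adjusted p of such probes, here and below, is from the fit without this bound (log2 fold change 0.48 here) and is no test of the bound. With no background correction the log2 fold change of this Col4a5 probe was 0.15 under either scaling. The call was lost without Scramble replicate 2 or 3 (adjusted p = 0.0701 and 0.0610) and in all 3 alternatives of background and scaling, with no filter and with a trend of the prior variance, in a range of 0.0205 to 0.190, and without any one siDJ-1 array the probe was no longer tested. The mean of both Col4a5 probes was not called.

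Of the 40 genes 17 had no tested probe. They are the fibrillar Col2a1, Col11a1, Col11a2 and Col24a1, the basement-membrane Col4a3, Col4a4, Col4a6 and Col15a1, and the other types Col9a1, Col9a2, Col9a3, Col10a1, Col13a1, Col17a1, Col19a1, Col20a1 and Col25a1. Type II, IX and X chains are those of cartilage, and type XVII that of epithelial anchors. Over the 88 probes, 27 were detected on all 6 arrays and 36 on none. Of 11 genes with more than 1 tested probe, 4 had probes that differed in call (Col3a1, Col4a5, Col5a2 and Col6a2) and 4 had every tested probe called (Col8a2, Col12a1, Col18a1 and Col23a1). No such count over the genes of the whole array stands beside these, so they only describe the probes.

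**Figure D4:**
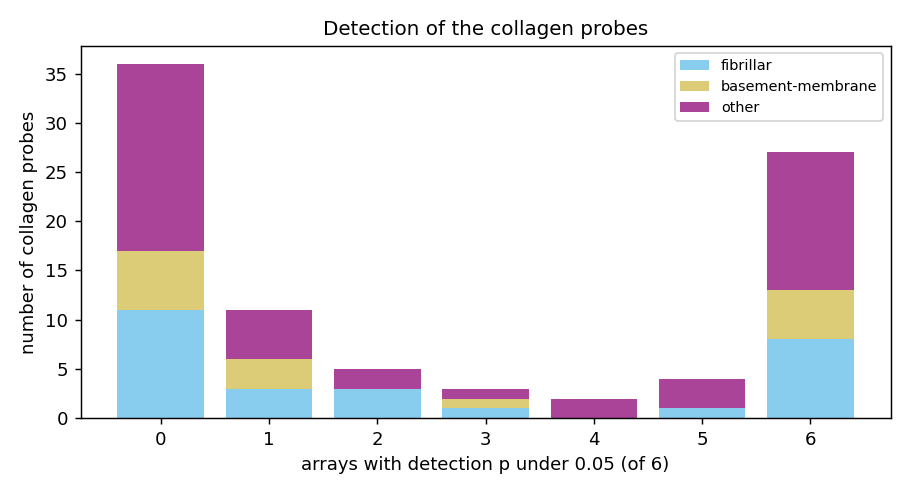
Number of collagen probes (vertical axis) by the number of arrays that detected them at a detection p under 0.05 (horizontal axis, 0 to 6), with colors for the fibrillar, basement-membrane and other types. The probes fall mainly at the ends, 36 detected on no array and 27 on all 6.

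The machinery that finishes a collagen was taken from 8 lists of partner genes. Of their 205 probes 122 were tested, and 20 were called higher (16.4%, beside 16.5% of all tested probes) and 25 lower (20.5%, beside 13.6%), with a median log2 fold change of -0.06 beside 0.05 for all tested probes. The share of rises was close to that of the whole array, and the shares given for each list below stand beside the same 16.5% and 13.6%. Without the 4 probes that entered the test through the arrays of 1 group alone, 19 rose and 23 fell. The 20 rises were 13 with no filter or with gene means, 13 without Scramble replicate 2, 12 without siDJ-1 replicate 1 and 11 without siDJ-1 replicate 3. Of the 35 called probes named below, the largest changes of each list, 23 kept the call with each of the 6 arrays left out in turn. Another 2, of Fmod and Lama1, kept it without each siDJ-1 array and were not tested without any 1 Scramble array. For the other 10 the highest adjusted p over the alternatives is given. With no background correction 13 of the 35 had a log2 fold change of the same sign but nearer to 0 by over 1.5 times, and the value nearest to 0 is given for each.

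**Figure D5:**
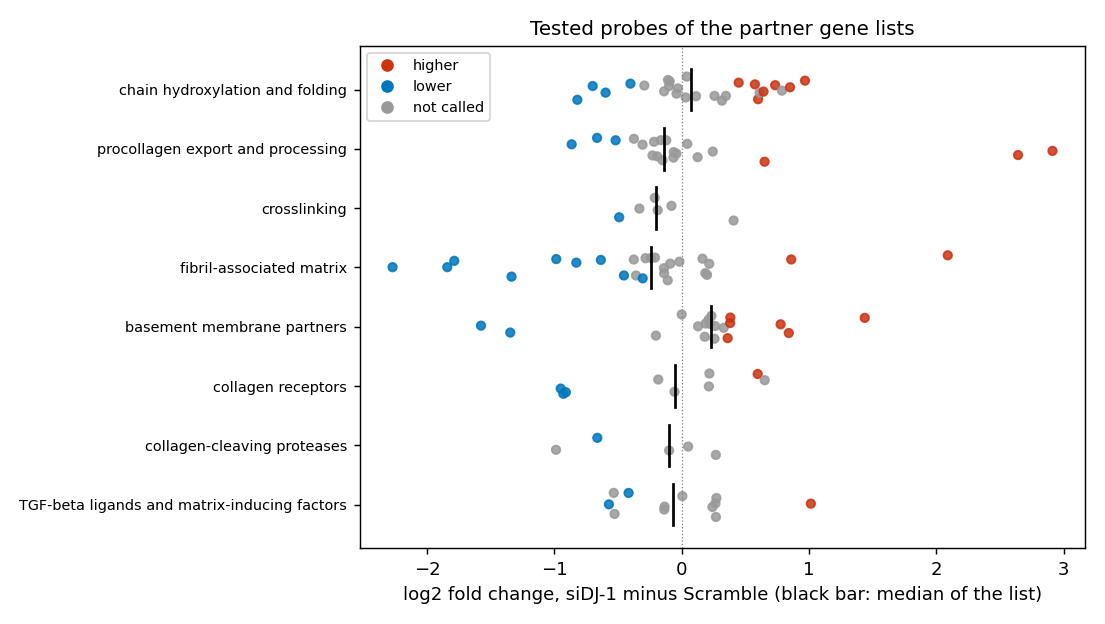
Log2 fold change (siDJ-1 minus Scramble, horizontal axis) of the 122 tested probes of 8 lists of collagen partner genes, 1 line of points per list, with called rises in red, called falls in blue, other probes in grey and a black bar at the median of the list. The medians run from -0.24 for the proteins that bind fibrils to 0.23 for the basement-membrane partners, and the point farthest to the right is a Tram2 probe (2.91) that 1 Scramble array detected and that stood at 1.37 with a 75th percentile shift and no background correction.

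Hydroxylases and chaperones act on the chains in the endoplasmic reticulum, and 26 of their 30 probes were tested, with 7 higher (26.9%), 4 lower (15.4%) and a median of 0.08. The largest rises were of P4ha1 (log2 fold change 0.97, adjusted p = 0.00667) and P4ha2 (0.64, adjusted p = 0.0149), subunits of the enzyme that hydroxylates proline and so stabilizes the helix, of Plod2 (0.73, adjusted p = 0.0145), which hydroxylates lysine at the chain ends, and of P3h2 (0.85, adjusted p = 0.0148, nearest to 0 at 0.27), which hydroxylates proline at another carbon and was detected on 1 Scramble array. The P4ha1 probe given here had no RefSeq match. The other tested P4ha1 probe, named after its values were seen and not among the 35 counted above, had a match and rose less (0.58, adjusted p = 0.0495). A second tested probe was not called for Plod2 (0.61, adjusted p = 0.0507) or P3h2 (0.79, adjusted p = 0.0504). On the named probes Plod2 lost its call without siDJ-1 replicate 1 or 3 (adjusted p up to 0.0563) and P4ha2 without siDJ-1 replicate 3 (adjusted p up to 0.0522). The falls were of Crtap, a partner of prolyl 3-hydroxylase, on both probes (-0.82, adjusted p = 0.0119, and -0.70, adjusted p = 0.0102), of the prolyl isomerase Fkbp14 (-0.60, adjusted p = 0.0114) and of P3h4 (-0.40, adjusted p = 0.0489), whose call was lost without Scramble replicate 1 or 2 or any 1 of the siDJ-1 arrays, with no filter, with the replicate block and after background correction with a 75th percentile shift (adjusted p up to 0.133). Colgalt2, a transferase that adds galactose to the chains, had no tested probe.

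Of 36 probes for export and trimming 20 were tested, with 3 higher (15%), 3 lower (15%) and a median of -0.14. Tram2, a translocon protein used in making type I collagen, rose on both probes, by a log2 fold change of 2.91 (adjusted p = 0.00305) on one that 1 Scramble array detected, so against signals mostly at background (nearest to 0 at 1.37) and 2.64 (adjusted p = 0.00295) on one that 2 did (nearest to 0 at 1.28). Sec23a, a coat protein of the vesicles that carry procollagen, rose as well (0.65, adjusted p = 0.0126). The falls were of the enhancers of procollagen trimming, Pcolce2 on both probes (-0.86, adjusted p = 0.00562, and -0.66, adjusted p = 0.00855) and Pcolce (-0.52, adjusted p = 0.0162), the last not called without siDJ-1 replicate 1 or after background correction with a 75th percentile shift (adjusted p up to 0.0602). Sec24d, Tll1, Tll2, Adamts3 and Adamts14 had no tested probe. Of 9 probes for crosslinking enzymes 6 were tested, with 0 higher, 1 lower (16.7%) and a median of -0.20. The fall was of Loxl4, a lysyl oxidase (-0.49, adjusted p = 0.0267, nearest to 0 at -0.25), and was not called without Scramble replicate 2 or any 1 of the siDJ-1 arrays, with no filter or with a trend of the prior variance (adjusted p up to 0.0858), while Loxl2 had no tested probe.

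Proteins that bind fibrils had 25 of 43 probes tested, with 2 higher (8%), 9 lower (36%) and a median of -0.24. Without the probe that entered the test through the Scramble arrays alone, 8 of 24 fell (33.3%), 2 rose (8.33%) and the median was -0.22. The largest falls were those of the small proteoglycans fibromodulin and decorin, which bind fibrils and limit their growth. Fmod fell on 2 probes, by a log2 fold change of -2.27 (adjusted p = 0.00277, nearest to 0 at -1.08) on one and by at least 2.55-fold (adjusted p = 0.00331, a log2 fold change nearest to 0 at -0.65) on one that no siDJ-1 array detected and that was not tested without any 1 Scramble array. Dcn fell on 2 probes (-1.79, adjusted p = 0.00580, and -1.34, adjusted p = 0.00598). Fn1, fibronectin, on which cells lay down collagen, was called higher on 1 of its 4 tested probes (0.86, adjusted p = 0.0148). The other Fn1 probes, among them the brightest, gave 0.16, 0.22 and 0.19 (adjusted p = 0.295, 0.168 and 0.445), and the Fn1 mean was not called. Fbn1, the microfibril protein fibrillin, had a probe that rose (2.09, adjusted p = 0.0125, nearest to 0 at 0.98, detected on 2 Scramble arrays) and that had no RefSeq match. Another Fbn1 probe, named after its values were seen and not among the 35 counted above, had a match and fell (-0.45, adjusted p = 0.0220). Every array detected it. Lum, Aspn, Tnxb and Eln had no tested probe.

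The partners of the basement-membrane collagens had 19 of 33 probes tested, with 6 higher (31.6%), 2 lower (10.5%) and a median of 0.23. Without the probe that entered the test through the Scramble arrays alone, 1 of 18 fell (5.56%), 6 rose (33.3%) and the median was 0.25. Nid1, the linker between laminin and type IV collagen, rose on 2 probes (1.44, adjusted p = 0.00902, nearest to 0 at 0.79, and 0.84, adjusted p = 0.00513). The Nid1 probe at 1.44 had no RefSeq match and carries the gene's name from the array alone. The laminin chain Lama5 rose too (0.78, adjusted p = 0.0111). The core protein of perlecan, Hspg2, was split between a probe that rose (0.38, adjusted p = 0.0368) and one that fell (-1.58, adjusted p = 0.00285, nearest to 0 at -0.76), while the other tested probe was not called (0.33, adjusted p = 0.0723). The rising probe had a RefSeq match, and the others carry the gene's name from the array alone. The rise was not called without Scramble replicate 2 or 3 or any 1 of the siDJ-1 arrays, with no filter or with the replicate block (adjusted p up to 0.118). Lama1, a laminin chain of the early embryo, was at least 1.89-fold lower (adjusted p = 0.0108, a log2 fold change nearest to 0 at -0.44) on a probe that no siDJ-1 array detected, again not tested without any 1 Scramble array. Lama3, Lama4 and Lamc3 had no tested probe.

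Collagen receptors had 9 of 18 probes tested, with 1 higher (11.1%), 3 lower (33.3%) and a median of -0.06. Without the probe that entered the test through the siDJ-1 arrays alone, 0 of 8 rose, 3 fell (37.5%) and the median was -0.12. Itga11, the integrin chain that binds fibrillar collagen on mesenchymal cells, fell on both tested probes (-0.95, adjusted p = 0.00342, and -0.91, adjusted p = 0.00514), and Itga10, a collagen-binding integrin chain of cartilage, fell too (-0.93, adjusted p = 0.0365, nearest to 0 at -0.35), although not without any 1 of the Scramble arrays or siDJ-1 replicate 1 or 3, with no filter or with the replicate block (adjusted p up to 0.113). Ddr2, a receptor kinase for fibrillar collagen, was at least 1.08-fold higher (adjusted p = 0.0406, a log2 fold change nearest to 0 at 0.20) on a probe that no Scramble array detected, and that call was made in 0 of the 10 alternatives in which the probe was tested, without Scramble replicate 1, 2 or 3 among them (adjusted p up to 0.142). Itga1, Itga2, Lair1 and Gp6 had no tested probe.

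Of 18 probes for collagen-cleaving proteases 5 were tested, with 0 higher, 1 lower (20%) and a median of -0.10. The fall was of Mmp14, the membrane-bound collagenase (-0.66, adjusted p = 0.00797), while Mmp1b, Mmp8, Mmp13, Mmp16 and Ctsk had no tested probe. Of 18 probes for TGF-beta ligands and matrix-inducing factors 12 were tested, with 1 higher (8.33%), 2 lower (16.7%) and a median of -0.06. Tgfbr2, the type II receptor, had a probe that rose (1.02, adjusted p = 0.00494, nearest to 0 at 0.48) and one that fell (-0.57, adjusted p = 0.0142, not called without siDJ-1 replicate 1 or 3, adjusted p up to 0.0574). The ligand Tgfb2 fell (-0.42, adjusted p = 0.0467), a call lost without Scramble replicate 1 or 2 or any 1 of the siDJ-1 arrays, with no filter, with the replicate block and after background correction with a 75th percentile shift (adjusted p up to 0.124). Smad7, an inhibitor of the pathway, had no tested probe.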

How the data were processed

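RNA from 3 Scramble and 3 siDJ-1 samples was read on Illumina BeadChip arrays. For each probe and sample the authors deposited a detection p-value, a bead number, the bead standard error and the mean signal intensity, this last without normalization or subtraction of background. With limma 3.58.1 in R 4.3.3, neqc corrected the background (offset 16), quantile normalized and took log2. The 17890 probes that 3 or more of the 6 arrays detected (p under 0.05) entered lmFit and eBayes with siDJ-1 against Scramble, and the Benjamini-Hochberg adjustment ran over all of them. The pipeline was tested on simulated data. Gene symbols came from RefSeq for 32345 probes, and the others kept the name that the array gives. Members and lists were chosen with earlier results of these data known.

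Array values are given for types I, III, IV, V and VI and for up to 8 called rises and falls without overlap, largest first, and up to 4 called probes per partner list and direction are named. The partner lists were hydroxylation and folding, export and processing, crosslinking, fibril-associated matrix, basement membrane, receptors, proteases and TGF-beta factors, and the marker lists were myotube, undifferentiated myoblast or reserve cell, fibroblast, chondrocyte, osteoblast, adipocyte, endothelial and macrophage. Alternatives were no background correction, a 75th percentile shift with and without it, no filter, a strict filter (detection p under 0.01 on all 6 arrays), a trend of the prior variance, array weights, a replicate block, gene means, type IV alone and each array left out.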

Additional observations from a re-analysis of the deposited data

How the results depend on the processing

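Park7 stayed called in every alternative. Of the 15 called collagen probes, 8 from 5 genes (Col5a2, Col7a1, Col8a2, Col12a1 and 1 probe of Col23a1) were called in every alternative in which they were tested, 7 lost the call in some and 0 changed direction, while 5 of the 21 others passed in some, leaving out means over several probes. Collagen falls numbered 8 to 14 over the alternatives. With no filter the whole array had 3519 called probes in place of 5387, collagen rises and basement-membrane rises were 1 each, partner rises 13 and the collagen median -0.0374; more tests are then adjusted for, and probes at background enter the median. With gene means collagen and basement-membrane rises were 1, as the 3 probes are of 2 genes and Col4a5 was not called, falls of the other types 5, for 5 genes, and partner rises 13 of 16 genes, without Fn1, Hspg2 and Tgfbr2. Type IV alone left 1 rise. Background correction with a 75th percentile shift gave 2 fibrillar falls. Rises of the other types were 1 with no background correction under either scaling and with a trend of the prior variance. The median was -0.0409 with a 75th percentile shift and no background correction and -0.35 with the strict filter. Where no reason is given the cause was not tested. With each array left out, called probes ran from 2444 (without siDJ-1 replicate 1) to 5302, collagen rises from 0 to 4, basement-membrane rises from 0 to 4, fibrillar falls from 2 to 4, partner rises from 11 to 23 and the median from -0.28 to -0.15.

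The arrays share replicate numbers between groups, and as a pairing check each siDJ-1 array's deviations from its group's mean correlated with those of the Scramble array of the same number at r = 0.0537, 0.0474 and 0.0199 across probes, which are not independent, so the numbers were not taken to pair samples, although these were the highest of the 9 values. With the replicate block 2361 probes were higher and 1989 lower, among them 2 collagen rises and 11 falls. The other Col3a1 probe (ILMN_2683958) was then called lower. Col1a1, the bright Col3a1 probe and Col18a1 (ILMN_2735184) were no longer called, nor were P3h4, Tgfb2, Itga10, Ddr2 and the Hspg2 rise.

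The chain differences and the named partner probes were run under the alternatives after seeing the data, and the Col8a1 and Col8a2 pair and the counts without probes of 1 group alone were chosen then. Col1a2 minus Col1a1 turned to -0.14 with no filter, where a Col1a1 probe at background enters the mean. The probes that turned direction were all uncalled. After background correction with a 75th percentile shift Col14a1 was at -0.000736, Col6a1 at 0.0392 (ILMN_1259388) and 0.15 (ILMN_2768087), Col6a3 (ILMN_1249220) at 0.12 and Col8a1 at 0.0136 and 0.0240. With that shift and no background correction Col6a1 (ILMN_2768087) was at 0.0938 and Col6a3 (ILMN_1249220) at 0.0631, and with array weights Col4a1 was at -0.0177. With each array left out the ranges were Col14a1 (ILMN_1229714) from -0.18 to 0.32, Col4a1 (ILMN_2621643) from -0.0383 to 0.0459, Col5a2 (ILMN_1221670) from -0.39 to 0.0434, Col6a1 (ILMN_2589422) from -0.29 to 0.34, Col6a1 (ILMN_2768087) from -0.0928 to 0.14, Col6a3 (ILMN_1249220) from -0.0869 to 0.0259 and Col6a3 (ILMN_2689207) from -0.28 to 0.25. The strict filter left 26 of the 36 collagen probes and leaving out an array 33 to 35, so the others have no value there, and the model alternatives and gene means have none for the chain differences. Signal over background limits the dim probes. With no background correction 7 of the 15 called collagen probes moved by over 1.5 times, toward 0.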

Other observations

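Some collagen genes carry other names on this array and so lie outside the naming pattern. The probes of Col6a4, Col6a5 and Col6a6, the further chains of type VI, were detected on 0 of the 6 arrays. Col26a1, listed as EMID2 (ILMN_1247358), read 5.08, 5.40 and 5.42 for Scramble and 5.70, 5.48 and 6.08 for siDJ-1. No Scramble array and all 3 siDJ-1 arrays detected it, the groups did not overlap, and it was not called (adjusted p = 0.101).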
